A study of Mus musculus with 110 samples.

Results

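Brown fat was compared with inguinal fat in untreated mice, to describe what separates the 2 depots at 22 °C without cold exposure or methionine restriction. The comparison holds the 13 Ctrl_RT libraries of these depots, 6 from BAT (iBAT) and 7 from inguinal white adipose tissue (iWAT), out of 54 iBAT and iWAT libraries and 110 libraries in the series. They were chosen by the depot and group named in the sample titles, without the use of any measured value. One iBAT library titled as methionine restriction at 22 °C (MetR_RT replicate 1) carries the Ctrl_RT treatment tag, and the study lists 7 iBAT Ctrl_RT libraries. That library was left out here, following its title. Every gene with at least 10 counts over the 13 libraries was tested, which left 23965 of 56884 genes. The donors were adult male wild-type C57BL/6N mice (Taconic), housed alone at 22 °C, which ate a control diet with 0.86% methionine and no cysteine for 7 days and had no cold exposure (0 h). Both depots share all of this, the lack of dietary cysteine included. For 6 mice both depots were sequenced, whereas iWAT replicate 5 has no iBAT partner. Where the mouse was fitted as a block, only these 6 mice entered, without iWAT replicate 5. At the end of the results, the same depot difference is set beside that of the MetR_CE group, mice of the same kind on a diet with 0.12% methionine and no cysteine that spent their last 24 h at 4 °C. Each library was made from polyadenylated RNA of a whole depot, so its counts come from adipocytes, stroma, vessels, nerves and immune cells together. In such bulk RNA, fewer cells of a type and less RNA per cell cannot be told apart.

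Brown adipocytes hold many small lipid droplets and densely packed mitochondria, in whose inner membrane uncoupling protein 1 (UCP1) lets protons return without making ATP, so that fuel oxidation gives heat. White adipocytes store triglyceride in a single large droplet and secrete hormones such as leptin and adiponectin, and inguinal fat of mice can also form beige adipocytes, which express UCP1 upon cold or adrenergic stimulation. The depots arise from different regions of the embryo, and their cells keep expressing distinct sets of HOX and other patterning factors in the adult.

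Values are given as CPM, the counts per 1000000 of the TMM-scaled library, as the lowest to the highest library of a depot. Log2 fold changes are iBAT minus iWAT, with their SE after the ± sign. A gene was called a DEG at an adjusted p (edgeR, Benjamini-Hochberg over all genes tested) under 0.05 and a change of at least 1.5-fold in either direction. By this rule 10258 genes (42.8% of those tested) were DEGs. Of all genes tested, 17.5% were DEGs with the higher level in iBAT and 25.3% with the higher level in iWAT. The counts of each list below are to be read beside these shares. In 36.4% of the genes tested the libraries of the 2 depots did not overlap. Total counts ranged from 22536700 to 27806600 in iBAT and from 17215400 to 31843700 in iWAT. The 10 most counted genes of a library took 23.2% to 25.3% of iBAT counts and 12.6% to 19.6% of iWAT counts, and TMM factors were 0.819 to 0.872 in iBAT and 1.04 to 1.23 in iWAT. The scaling therefore moves all genes together: the median log2 fold change of the genes tested was -0.10 with TMM and -0.53 with total counts alone, and the share of DEGs that were higher in iBAT was 40.9% with TMM and 19.9% with total counts. Transcripts of skeletal muscle were found in a part of the libraries of both depots. The 21 genes of a muscle list summed to more than 1000 CPM in 2 iBAT libraries (replicates 3 and 5) and 3 iWAT libraries (replicates 2, 4 and 6), and counts without these 5 libraries are given where they bear on a group. iWAT replicate 5, from the mouse without an iBAT library, had the highest inguinal values of many metabolic genes named here, which are given without it where that moves a value. In iBAT replicate 5 a list of 10 liver genes summed to 84.9 CPM, against 0.213 to 6.60 in the other iBAT libraries. In iWAT replicate 7 a list of 10 interferon response genes summed to 1718 CPM, against 183 to 424 in the other iWAT libraries.

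Markers of brown adipocytes separated the depots. Of 26 such genes 24 were DEGs, all higher in iBAT, against 17.5% of all genes tested, and the median log2 fold change of the list was 3.48 (-0.10 over all genes). Ucp1, the uncoupler itself, had 7213 to 10444 CPM in iBAT (median 8443) and 1.26 to 427 in iWAT (median 71.6). Although the lowest iBAT library stood far above the highest iWAT library, Ucp1 spread more widely within iWAT than within iBAT, from replicate 2 at the low end to replicate 7 at the high end, and the depot difference was a log2 fold change of 5.79 (SE 0.82, adjusted p = 1.61e-05). Cidea, a lipid droplet protein that promotes droplet growth, had 2086 to 2493 CPM in iBAT (median 2395) and 37.7 to 301 in iWAT (median 159.8), a log2 fold change of 3.91 ± 0.36 (adjusted p = 1.49e-07). Dio2, the deiodinase that makes active thyroid hormone inside the cell, had 55.4 to 150.1 CPM in iBAT (median 85.8) and 1.47 to 5.94 in iWAT (median 2.76), a log2 fold change of 4.77 ± 0.34 (adjusted p = 7.24e-09). Elovl3, a cold-inducible fatty acid elongase, had 321 to 491 CPM in iBAT (median 398) and 1.78 to 71.1 in iWAT (median 11.6), a log2 fold change of 4.15 ± 0.61 (adjusted p = 2.35e-05). Without iWAT replicate 5, which held the highest inguinal value, its log2 fold change was 4.79. None of these 4 genes overlapped between the depots.

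The other members of the list ranged more widely. Otop1, a proton channel, had 562 to 689.9 CPM in iBAT (median 653) and 8.88 to 80.5 in iWAT (median 33.98), a log2 fold change of 3.89 ± 0.37 (adjusted p = 2.17e-07). Acot11, an acyl-CoA thioesterase, had 1275 to 1776 CPM in iBAT (median 1569) and 7.41 to 141 in iWAT (median 38.6), a log2 fold change of 4.95 ± 0.49 (adjusted p = 2.70e-07). Letmd1, a mitochondrial protein of brown adipocytes, had 873 to 1053 CPM in iBAT (median 989) and 57.2 to 92.9 in iWAT (median 67.4), a log2 fold change of 3.77 ± 0.13 (adjusted p = 8.79e-12). These values kept a gap of several fold between the lowest iBAT and the highest iWAT library. Kcnk3, a potassium channel, had 885 to 1229 CPM in iBAT (median 963) and 113 to 258.3 in iWAT (median 167), a log2 fold change of 2.60 ± 0.17 (adjusted p = 2.57e-09). In each of these the depots did not overlap. Slc29a1, a nucleoside transporter, was a DEG with 60.0 to 110.2 CPM in iBAT (median 86.7) and 41.4 to 60.6 in iWAT (median 50.7), a log2 fold change of 0.74 ± 0.13 (adjusted p = 1.35e-04). Here the depots overlapped, and the call was lost with total counts (0.30). The 2 markers of the list that were not called were Adrb3 and Lhx8. Adrb3, the beta-adrenergic receptor of adipocytes, had 277.7 to 532 CPM in iBAT (median 387) and 211 to 613 in iWAT (median 376), a log2 fold change of 0.066 ± 0.20 (adjusted p = 0.803), with overlapping depots. Lhx8, a homeobox factor expressed in brown preadipocytes, stayed at 2.31 to 4.37 CPM in iBAT (median 2.80) and 1.52 to 4.99 in iWAT (median 2.40), a log2 fold change of 0.059 ± 0.27 (adjusted p = 0.87). Several of these genes are also expressed in muscle, so the list was counted again over the 4 iBAT and 4 iWAT libraries with at most 1000 CPM of muscle genes. There 24 of the 26 genes were called higher in iBAT, with log2 fold changes of 5.17 for Ucp1, 4.48 for Cox7a1, 2.82 for Cox8b and 5.03 for Fabp3. In these libraries the muscle list itself had a median log2 fold change of 1.60, toward iBAT. This count therefore lowers muscle transcripts but does not balance them between the depots. Over all 13 libraries Fabp3, the fatty acid carrier of muscle and brown fat, had 199 to 465 CPM in iBAT (median 243.1) and 0.996 to 16.6 in iWAT (median 3.01), a log2 fold change of 5.46 ± 0.60 (adjusted p = 1.02e-06). With total counts in place of TMM, 23 of the 26 genes were called, again all higher in iBAT.

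**Figure D1:**
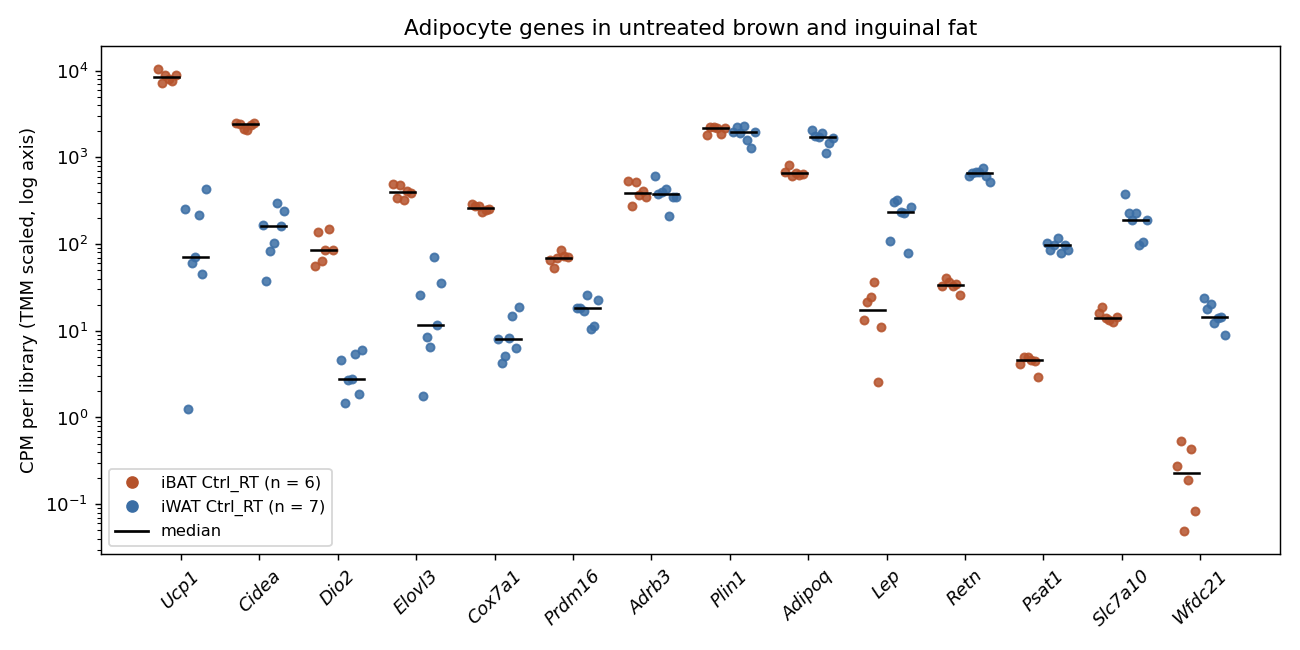
CPM of 14 adipocyte genes in each Ctrl_RT library on a log axis, with iBAT (6 libraries) in brown, iWAT (7 libraries) in blue and the median of each depot as a bar. The brown markers from Ucp1 to Prdm16 lie higher in iBAT, Adrb3 and Plin1 overlap, and the genes from Adipoq to Wfdc21 lie higher in iWAT; the inguinal values of Ucp1 run from 1.26 to 427 CPM.

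Regulators of the thermogenic programme were split. Of 33 transcription regulators, 18 were DEGs higher in iBAT, 4 were DEGs higher in iWAT and 11 were not called, with a median log2 fold change of 0.76. With total counts the split was 11 higher in iBAT and 8 in iWAT. The called factor with the most counts was Cebpb, an early activator of adipocyte genes, with 491 to 753 CPM in iBAT (median 633) and 115 to 189 in iWAT (median 154), a log2 fold change of 2.08 ± 0.15 (adjusted p = 5.10e-09). Pparg, the receptor that drives fat cell formation, had 244.3 to 303 CPM in iBAT (median 263.7) and 84.5 to 197 in iWAT (median 131), a log2 fold change of 0.88 ± 0.17 (adjusted p = 2.92e-04). Neither overlapped between the depots, but with total counts Pparg fell under the fold threshold (0.45).

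Coactivators and receptors that direct mitochondrial genes were among the called factors. The coactivator Ppargc1a (PGC-1 alpha), which drives mitochondrial gene expression, had 26.1 to 71.9 CPM in iBAT (median 52.4) and 6.26 to 14.7 in iWAT (median 9.48), a log2 fold change of 2.36 ± 0.26 (adjusted p = 1.23e-06). Its relative Ppargc1b had 121 to 189 CPM in iBAT (median 152) and 7.33 to 24.02 in iWAT (median 15.7), a log2 fold change of 3.25 ± 0.24 (adjusted p = 1.09e-08). Both coactivators were several times as high in iBAT as in iWAT. Of their nuclear receptor partners, Esrrg had 23.5 to 33.98 CPM in iBAT (median 27.6) and 0.260 to 1.92 in iWAT (median 1.13), a log2 fold change of 4.64 ± 0.29 (adjusted p = 1.38e-09), the widest gap of the list. Ppara, the receptor for fatty acids, had 147 to 339 CPM in iBAT (median 229) and 5.85 to 34.5 in iWAT (median 13.5), a log2 fold change of 3.98 ± 0.33 (adjusted p = 4.35e-08). For Esrra the log2 fold change was 1.84 ± 0.097. Prdm16, a determinant of brown identity, had 53.3 to 85.01 CPM in iBAT (median 69.4) and 10.4 to 25.6 in iWAT (median 18.1), a log2 fold change of 1.97 ± 0.18 (adjusted p = 1.54e-07). Nr4a1, an immediate early receptor induced by cAMP, had 22.4 to 255.5 CPM in iBAT (median 163) and 4.14 to 21.1 in iWAT (median 10.9), a log2 fold change of 3.55 ± 0.51 (adjusted p = 1.91e-05). The depots did not overlap in any of these 7 factors. Tfam, which packages mitochondrial DNA, and Gabpa, an activator of respiratory genes, were higher by less, with log2 fold changes of 1.08 (SE 0.061) and 1.16 (SE 0.092). Among the 4 factors higher in iWAT, Nrip1 (RIP140), a corepressor of oxidative genes, had 12.4 to 23.1 CPM in iBAT (median 16.7) and 47.2 to 141 in iWAT (median 67.4), a log2 fold change of -2.09 ± 0.24 (adjusted p = 1.52e-06). Cebpd, an early adipogenic factor, had 5.97 to 7.79 CPM in iBAT (median 7.05) and 27.3 to 39.03 in iWAT (median 33.3), a log2 fold change of -2.24 ± 0.10 (adjusted p = 6.12e-11).

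Transcripts of the 13 protein subunits encoded in the mitochondrial genome took 12.1% to 14.3% of all counts in iBAT (median 12.3%) and 3.61% to 4.84% in iWAT (median 4.00%). The means differed by 8.59 percentage points, and in an exact two-sided permutation test over the 13 libraries p was 0.00117, the smallest that 1716 regroupings can give. That test leaves the pairing by mouse aside. Within the 6 mice with both depots, the share was higher in iBAT in 6 of 6, by 8.72 ± 1.08 points (SD). An exact sign-flip test over these 6 pairs gave p = 0.03125, the smallest that this test can give with 6 pairs. All 13 mitochondrially encoded subunits were DEGs higher in iBAT, with a median log2 fold change of 2.21. The table barely counts 6 of them, mt-Atp6, mt-Atp8, mt-Co2, mt-Co3, mt-Nd3 and mt-Nd4l, which stayed under 10 CPM in every library. The other 7 differed by log2 fold changes from 1.64 to 2.49. Among them mt-Cytb, the cytochrome of complex III, had 28209.6 to 34346 CPM in iBAT (median 30738) and 5776 to 8561 in iWAT (median 6386), a log2 fold change of 2.21 ± 0.13 (adjusted p = 9.91e-10). For mt-Nd5, of complex I, the libraries held 19008 to 23674 CPM in iBAT (median 20404) and 3104 to 4899.9 in iWAT (median 3270.3), a log2 fold change of 2.49 ± 0.14 (adjusted p = 3.05e-10). The gap was smaller for mt-Co1, with 38576 to 46654 CPM in iBAT (median 42986) and 11494 to 18760.2 in iWAT (median 12946), a log2 fold change of 1.64 ± 0.14 (adjusted p = 5.55e-08). The depots did not overlap in any of the 7.

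**Figure D2:**
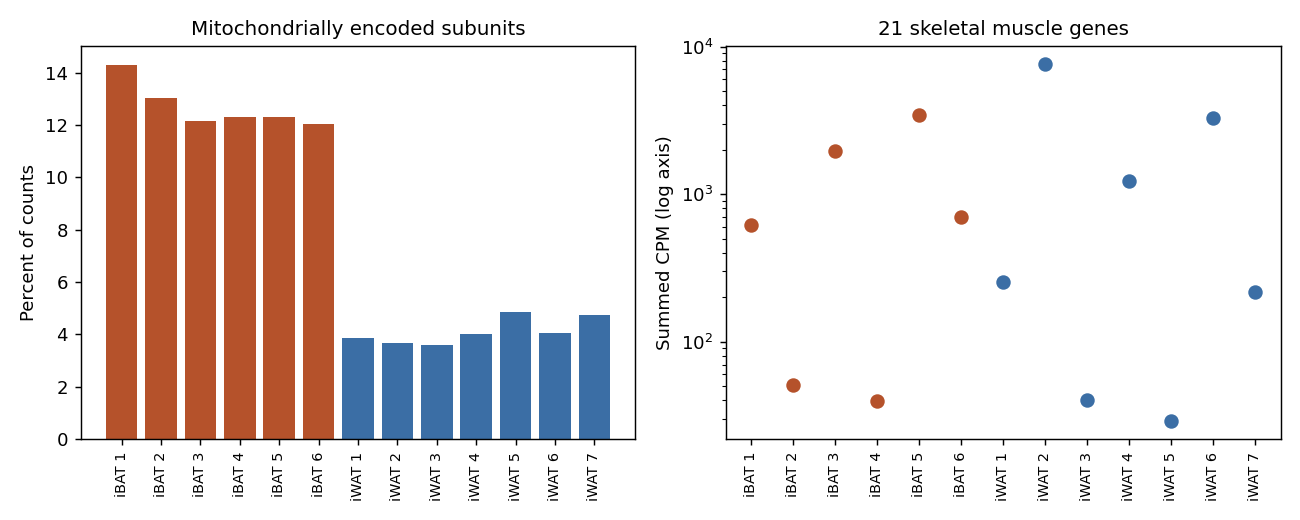
Left, the percent of each library's counts that falls on the 13 mitochondrially encoded subunits, and right, the summed CPM of 21 skeletal muscle genes on a log axis, for the 6 iBAT (brown) and 7 iWAT (blue) libraries. The mitochondrial share does not overlap between the depots, from 12.1% upward in iBAT and up to 4.84% in iWAT, whereas muscle transcripts vary from 28.9 to 7651 CPM with no separation by depot.

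Nuclear genes of the respiratory chain moved with them. Of 85 subunits tested, 80 were DEGs higher in iBAT and 1 was higher in iWAT, with a median log2 fold change of 1.71. In each complex most subunits were higher in iBAT. In complex I all 39 subunits tested were higher in iBAT. Its flavoprotein Ndufv1 had 983 to 1247 CPM in iBAT (median 1062) and 166 to 254.6 in iWAT (median 177), a log2 fold change of 2.48 ± 0.11 (adjusted p = 3.60e-11). The subunit Ndufs1, which carries iron-sulfur clusters, had 725 to 809 CPM in iBAT (median 747) and 127 to 231 in iWAT (median 159), a log2 fold change of 2.20 ± 0.11 (adjusted p = 2.07e-10). All 4 subunits of complex II (succinate dehydrogenase) were higher in iBAT, among them Sdhb with 688 to 819 CPM in iBAT (median 775) and 124 to 221 in iWAT (median 156), a log2 fold change of 2.26 ± 0.11 (adjusted p = 1.46e-10). All 9 nuclear subunits of complex III were higher too, led by the core protein Uqcrc1 with 1398 to 1642 CPM in iBAT (median 1440.3) and 212 to 329 in iWAT (median 218), a log2 fold change of 2.62 ± 0.11 (adjusted p = 3.71e-11). Of 17 ATP synthase subunits, 14 were higher in iBAT, and the catalytic subunit Atp5b had 6921 to 7923 CPM in iBAT (median 7255) and 1373 to 2099 in iWAT (median 1433), a log2 fold change of 2.21 ± 0.12 (adjusted p = 2.70e-10). The exception was Atp5g1, 1 of the 3 genes for the same c subunit of the membrane rotor, with 2.84 to 6.88 CPM in iBAT (median 3.45) and 14.6 to 21.7 in iWAT (median 16.5), a log2 fold change of -1.96 ± 0.20 (adjusted p = 5.01e-07). Atp5g2 pointed to iBAT, with a log2 fold change of 0.64 (SE 0.078), while Atp5g3 was not called (-0.22, SE 0.087). With total counts the call of Atp5g2 was lost (0.21) and Atp5g3 was called higher in iWAT (-0.65).

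Complex IV differed in amount and, for 2 of 4 isoform pairs, in the share of each isoform. Of 16 nuclear subunits 14 were DEGs, all higher in iBAT. Cox7a1, the isoform of heart, muscle and brown fat, had 237 to 289.9 CPM in iBAT (median 263.4) and 4.29 to 18.7 in iWAT (median 8.12), a log2 fold change of 4.80 ± 0.31 (adjusted p = 1.74e-09). Its general counterpart Cox7a2 had 252.4 to 289.3 CPM in iBAT (median 262.04) and 77.6 to 116 in iWAT (median 90.7), a log2 fold change of 1.56 ± 0.086 (adjusted p = 3.83e-10). Of the counts of this pair, Cox7a1 took 48.4% to 51.4% in iBAT (median 49.6%) and 5.24% to 16.9% in iWAT (median 8.40%). Cox8b, likewise of striated muscle and brown fat, had 543 to 663 CPM in iBAT (median 599) and 38.8 to 113 in iWAT (median 76.1), a log2 fold change of 2.98 ± 0.18 (adjusted p = 8.67e-10). Its counterpart Cox8a had 761 to 897 CPM in iBAT (median 846) and 301 to 407 in iWAT (median 325), a log2 fold change of 1.32 ± 0.078 (adjusted p = 7.88e-10). Of the counts of this second pair, Cox8b took 40.2% to 43.7% in iBAT (median 41.6%) and 11.4% to 21.8% in iWAT (median 18.96%). These shares are of counts, without a correction for transcript length, and neither overlapped between the depots. In the remaining 2 pairs the muscle isoform Cox6a2 and the lung isoform Cox4i2 took little of the counts in either depot. Cox6a2 took 0% to 0.320% of its pair in iBAT (median 0.0538%) and 0.0555% to 1.62% in iWAT (median 0.191%). Cox4i2 took 0.138% to 0.278% in iBAT (median 0.213%) and 0.166% to 0.628% in iWAT (median 0.349%), and in both pairs the depots overlapped. The general member Cox6a1 had 1829 to 2140.4 CPM in iBAT (median 2017) and 413 to 604 in iWAT (median 465), a log2 fold change of 2.05 ± 0.092 (adjusted p = 5.01e-11), again without overlap.

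The enzymes that feed electrons into the chain followed the same direction. In the TCA cycle and pyruvate oxidation, 26 of 28 genes were DEGs higher in iBAT and 2 were higher in iWAT, with a median log2 fold change of 2.11. Ogdh, of the oxoglutarate dehydrogenase complex, had 3318 to 3634 CPM in iBAT (median 3470.2) and 415 to 629.9 in iWAT (median 463), a log2 fold change of 2.81 ± 0.12 (adjusted p = 2.37e-11). Pdk4, a kinase that turns pyruvate dehydrogenase off, had 2367 to 3660.4 CPM in iBAT (median 2791) and 95.8 to 562 in iWAT (median 177), a log2 fold change of 3.64 ± 0.34 (adjusted p = 1.59e-07). The 2 opposite genes were Pdk3, another such kinase, at -1.78 (SE 0.19) and pyruvate carboxylase (Pcx) at -0.67 (SE 0.19). The call of Pcx was lost without iWAT replicate 5, with a log2 fold change of -0.45. It was lost as well with the mouse as a block (-0.44), a fit that also lacks that library. In fatty acid oxidation, 24 of 26 genes were higher in iBAT and 1 in iWAT, with a median of 2.07. Hadha, of the trifunctional protein of beta-oxidation, had 2928 to 3377 CPM in iBAT (median 3261) and 339 to 757 in iWAT (median 487), a log2 fold change of 2.64 ± 0.16 (adjusted p = 8.84e-10). The exception concerns the step that admits fatty acids to the mitochondrion, carnitine palmitoyltransferase 1. Its muscle isoform Cpt1b had 73.2 to 83.8 CPM in iBAT (median 79.6) and 0.910 to 7.68 in iWAT (median 2.65), a log2 fold change of 4.49 ± 0.34 (adjusted p = 1.26e-08). Its liver isoform Cpt1a had the opposite order with 17.8 to 22.7 CPM in iBAT (median 21.5) and 47.1 to 81.5 in iWAT (median 65.97), a log2 fold change of -1.70 ± 0.11 (adjusted p = 3.03e-09). Neither isoform overlapped between the depots. Acsl5 and Acsl1 activate long-chain fatty acids. Acsl5 had 1157 to 1537 CPM in iBAT (median 1399) and 68.4 to 121 in iWAT (median 78.99), a log2 fold change of 4.02 ± 0.14 (adjusted p = 1.09e-11). For Acsl1, the libraries held 2418 to 3165 CPM in iBAT (median 2704) and 1712 to 2384 in iWAT (median 1965), which did not reach the fold threshold (log2 fold change 0.47).

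The machinery that builds mitochondria had smaller median differences. Of 36 genes of protein import, membrane dynamics and mitochondrial DNA, 31 were higher in iBAT and 0 in iWAT, with a median log2 fold change of 1.13. The chaperone Hspa9 had 1569 to 1945 CPM in iBAT (median 1731) and 396 to 591 in iWAT (median 456), a log2 fold change of 1.897 ± 0.097 (adjusted p = 1.67e-10). Mitofilin (Immt), which shapes cristae, had 675 to 749 CPM in iBAT (median 731) and 159 to 235 in iWAT (median 178), a log2 fold change of 1.95 ± 0.093 (adjusted p = 9.04e-11). Of 78 mitochondrial ribosomal proteins, 63 were higher in iBAT and 0 in iWAT, with a median of 0.91. With total counts, 22 of 36 and 32 of 78 were called higher in iBAT and 1 of each list was higher in iWAT. Among them Mrpl12 had 166 to 183 CPM in iBAT (median 174) and 72.8 to 104 in iWAT (median 82.9), a log2 fold change of 1.07 ± 0.077 (adjusted p = 7.41e-09). Cytosolic ribosomal proteins went the other way. Of 81 tested, 45 were higher in iWAT and 1 in iBAT, with a median of -0.65, and with total counts 70 were higher in iWAT. Rpl13, for example, had 99.3 to 112 CPM in iBAT (median 107) and 169 to 227 in iWAT (median 195), a log2 fold change of -0.90 ± 0.068 (adjusted p = 1.29e-08). Ribosomal protein genes have many near-identical processed pseudogenes, so counts of single members are uncertain.

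Promoter sequence was at hand for 66 respiratory chain subunits and 20 brown adipocyte markers, from RefSeq on GRCm38.p6, as the 250 bases before each gene's start. These were searched on both strands for the cAMP response element (CRE, TGACGTCA), the NRF1 core (GCGCATGC) and the response element of estrogen-related receptors (ERRE, TCAAGGTCA). None of the 3 contains another, while the NRF1 core can overlap itself on the other strand. Of the respiratory chain promoters 12.1% held the NRF1 core (8 of 66), beside 4.13% of the promoters of all genes tested and 2.56% of all 27025 promoters. CRE was in 6.06% of them (4 of 66), beside 2.58% and 1.77%, and ERRE in 1.52% (1 of 66), beside 0.322% and 0.422%. The subunit with ERRE is Atp5g3, which was not called. Of the promoters of all DEGs higher in iBAT, 4.53% held the NRF1 core, 2.9% CRE and 0.426% ERRE. Of those higher in iWAT, 2.47%, 1.93% and 0.385% did. A link of the motifs to the depot difference was not tested. Among the brown markers, 1 of 20 held CRE (Dio2), and 0 held the NRF1 core or ERRE. A match is a run of letters and was not tested as a binding site. The promoters of Dio2, the brown marker with a CRE, of Sdhb, a subunit with an NRF1 core, and of Ndufa11, a complex I subunit with both, are printed 5′ to 3′ on the gene's strand with the matches in capitals.
Dio2 (chr12:90739039-90739288, minus strand, CRE from 95 bases before the start): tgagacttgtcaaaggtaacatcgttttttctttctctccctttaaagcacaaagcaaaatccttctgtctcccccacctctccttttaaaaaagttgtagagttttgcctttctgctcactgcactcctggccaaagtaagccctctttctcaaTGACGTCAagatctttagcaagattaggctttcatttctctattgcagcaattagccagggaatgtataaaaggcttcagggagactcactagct
Sdhb (chr4:140961021-140961270, plus strand, NRF1 core from 54 bases before the start, on the opposite strand): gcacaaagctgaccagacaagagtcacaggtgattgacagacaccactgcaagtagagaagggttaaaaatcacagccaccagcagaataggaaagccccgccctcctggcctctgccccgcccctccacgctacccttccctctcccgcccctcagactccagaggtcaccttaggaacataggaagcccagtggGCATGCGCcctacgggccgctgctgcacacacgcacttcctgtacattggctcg
Ndufa11 (chr17:56717512-56717761, plus strand, CRE from 158 bases before the start and NRF1 core from 60 and 58 bases before it, on opposite strands and overlapping): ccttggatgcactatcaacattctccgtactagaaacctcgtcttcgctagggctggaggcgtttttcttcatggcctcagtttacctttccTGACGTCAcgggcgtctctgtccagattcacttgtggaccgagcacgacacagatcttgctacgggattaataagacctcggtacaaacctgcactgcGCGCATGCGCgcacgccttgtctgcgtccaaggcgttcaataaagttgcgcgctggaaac
Beside the values of Dio2 and Sdhb given above, Ndufa11 had 101 to 122 CPM in iBAT (median 117) and 33.6 to 54.05 in iWAT (median 36.8), a log2 fold change of 1.54 ± 0.10 (adjusted p = 2.10e-09), with no overlap between the depots.

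Genes of glucose use were mostly higher in iBAT too. Of 25 glycolytic and glycerol phosphate shuttle entries, 18 were DEGs higher in iBAT and 1 was higher in iWAT, with a median log2 fold change of 1.41. Pyruvate kinase (Pkm) had 2765 to 3530.5 CPM in iBAT (median 3029) and 567 to 1475 in iWAT (median 737), a log2 fold change of 1.89 ± 0.18 (adjusted p = 2.24e-07). Hexokinase 2 (Hk2), which traps glucose in insulin-sensitive cells, had 1044 to 1327 CPM in iBAT (median 1215) and 138 to 586 in iWAT (median 189), a log2 fold change of 2.31 ± 0.28 (adjusted p = 3.29e-06). Hk2 opens glycolysis and Pkm closes it, and in both the depots were apart. Pfkl, a phosphofructokinase, had 1466 to 2087 CPM in iBAT (median 1787) and 201 to 502 in iWAT (median 282.1), a log2 fold change of 2.60 ± 0.19 (adjusted p = 7.08e-09). Both enzymes of the glycerol phosphate shuttle were higher. The cytosolic enzyme Gpd1 had 14982 to 18158 CPM in iBAT (median 16488) and 2211 to 4361 in iWAT (median 2494), a log2 fold change of 2.60 ± 0.16 (adjusted p = 1.00e-09). Its mitochondrial partner Gpd2 had 1487 to 1660.2 CPM in iBAT (median 1556) and 131 to 412 in iWAT (median 204), a log2 fold change of 2.88 ± 0.22 (adjusted p = 1.41e-08). Lactate dehydrogenase B (Ldhb) had 475 to 552 CPM in iBAT (median 489.5) and 30.2 to 54.7 in iWAT (median 44.95), a log2 fold change of 3.51 ± 0.13 (adjusted p = 1.09e-11). For glucose entry, the insulin-responsive transporter Slc2a4 (GLUT4) had 729 to 909 CPM in iBAT (median 798) and 215 to 520.3 in iWAT (median 273.6), a log2 fold change of 1.37 ± 0.16 (adjusted p = 2.70e-06), while Slc2a1 (GLUT1) was higher in iWAT (-0.66, SE 0.13). The call of Slc2a1 was lost with glmTreat. All named here but Slc2a1 were without overlap.

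Lipogenic genes separated the depots by less and varied more among inguinal libraries. Of 22 genes of lipogenesis and triglyceride synthesis, 11 were higher in iBAT, 3 were higher in iWAT and 8 were not called, with a median log2 fold change of 0.61. Fatty acid synthase (Fasn) had 42284 to 69311 CPM in iBAT (median 57903) and 11659 to 38275 in iWAT (median 19005), a log2 fold change of 1.45 ± 0.23 (adjusted p = 5.24e-05). ATP citrate lyase (Acly), which makes its acetyl-CoA, had 5682 to 10298 CPM in iBAT (median 8104) and 1419 to 9723 in iWAT (median 3465), a log2 fold change of 1.11 ± 0.36 (adjusted p = 0.0143), with overlapping depots. The call of Acly was lost with total counts (0.71), with a test against the fold threshold (glmTreat, adjusted p = 0.0784) and over the 8 libraries low in muscle genes (0.84). Acacb, the acetyl-CoA carboxylase at the mitochondrial surface, had 2983 to 4611 CPM in iBAT (median 4202) and 574 to 1270.3 in iWAT (median 811), a log2 fold change of 2.18 ± 0.18 (adjusted p = 2.95e-08). The elongase Elovl6 was a DEG with 1717 to 1999 CPM in iBAT (median 1843) and 202 to 2137 in iWAT (median 506), a log2 fold change of 1.39 ± 0.39 (adjusted p = 0.00655), but its ranges overlapped because of iWAT replicate 5, without which the log2 fold change was 2.03. Over the 8 libraries low in muscle genes its call was lost (1.11, adjusted p = 0.132). The acyltransferase Gpat3 was higher in iWAT, with 7.53 to 30.7 CPM in iBAT (median 10.6) and 66.5 to 148 in iWAT (median 88.3), a log2 fold change of -2.72 ± 0.30 (adjusted p = 1.26e-06), so not every enzyme of triglyceride synthesis pointed to iBAT. Scd1, the main stearoyl-CoA desaturase, had 38540.3 to 73072 CPM in iBAT (median 60372) and 22590.5 to 76728 in iWAT (median 48537), a log2 fold change of 0.23 ± 0.23 (adjusted p = 0.424) and was not called. Of 21 genes of lipid droplets and lipolysis, 7 were higher in iBAT and 2 in iWAT, and the median of the list, 0.36 with TMM, was -0.09 with total counts, where 5 genes were called in each direction. Plin5, the perilipin that ties droplets to mitochondria, had 290.7 to 360.1 CPM in iBAT (median 331) and 19.3 to 53.2 in iWAT (median 33.1), a log2 fold change of 3.27 ± 0.19 (adjusted p = 7.93e-10). Atgl (Pnpla2), the lipase of the initial step, had 3772 to 4049.5 CPM in iBAT (median 3957) and 1848 to 2631 in iWAT (median 1967), a log2 fold change of 0.87 ± 0.10 (adjusted p = 2.09e-06), a call that was lost with total counts (0.43). Plin1, the perilipin of all adipocytes, had 1832 to 2237 CPM in iBAT (median 2175) and 1266 to 2301 in iWAT (median 1973), a log2 fold change of 0.14 ± 0.13 (adjusted p = 0.365), with overlapping depots.

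Heat production without UCP1 has been tied to cycles of creatine, calcium and lipid. Of 17 genes of such cycles, 9 were higher in iBAT and 2 in iWAT, with a median log2 fold change of 0.91, while with total counts the split was 5 and 3 and the median 0.45. Alpl (TNAP), the phosphatase assigned to phosphocreatine in brown fat, had 57.7 to 80.98 CPM in iBAT (median 71.7) and 2.28 to 5.97 in iWAT (median 4.31), a log2 fold change of 4.03 ± 0.16 (adjusted p = 2.34e-11). Glycerol kinase (Gk), which lets glycerol be reused for triglyceride, had 184 to 453 CPM in iBAT (median 270.6) and 6.84 to 54.7 in iWAT (median 15.1), a log2 fold change of 3.69 ± 0.42 (adjusted p = 1.33e-06). The calcium pump Atp2a2 (SERCA2) had 404 to 489 CPM in iBAT (median 435) and 168 to 223 in iWAT (median 199), a log2 fold change of 1.16 ± 0.082 (adjusted p = 5.78e-09). By contrast the enzymes that make creatine were higher in iWAT. Gatm had 1.76 to 6.06 CPM in iBAT (median 3.58) and 10.6 to 21.3 in iWAT (median 16.5), a log2 fold change of -2.09 ± 0.29 (adjusted p = 1.27e-05). Gamt had 3.04 to 4.21 CPM in iBAT (median 3.69) and 16.2 to 25.5 in iWAT (median 18.9), a log2 fold change of -2.44 ± 0.12 (adjusted p = 1.11e-10). Both were again without overlap. Ckb, the cytosolic creatine kinase, was not called, with 28.7 to 87.4 CPM in iBAT (median 30.1) and 35.6 to 60.2 in iWAT (median 42.5). Without iBAT replicate 1, its highest library, it was called higher in iWAT (-0.61, adjusted p = 0.00124), and likewise with total counts (-0.66).

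Receptors and enzymes of the cAMP pathway differed by isoform. Of 33 genes, 17 were higher in iBAT and 8 in iWAT, with a median log2 fold change of 0.63, while with total counts 10 were higher in iBAT and 11 in iWAT. The stimulatory G protein (Gnas) had 4136 to 4965 CPM in iBAT (median 4400.1) and 793 to 1018 in iWAT (median 894), a log2 fold change of 2.32 ± 0.086 (adjusted p = 1.17e-11). Prkar2b, the regulatory subunit of protein kinase A in fat, had 1438 to 1956 CPM in iBAT (median 1720.1) and 458 to 803 in iWAT (median 574), a log2 fold change of 1.52 ± 0.12 (adjusted p = 2.67e-08). Among the receptors, Adrb1 had 27.6 to 90.7 CPM in iBAT (median 57.4) and 5.89 to 12.1 in iWAT (median 6.60), a log2 fold change of 2.93 ± 0.23 (adjusted p = 2.23e-08). The alpha-adrenergic Adra1a had 89.9 to 128 CPM in iBAT (median 111) and 10.99 to 24.3 in iWAT (median 15.9), a log2 fold change of 2.71 ± 0.16 (adjusted p = 9.64e-10). Their relatives Adra1b and Adra2a were higher in iWAT, with log2 fold changes of -3.51 (SE 0.35) and -3.21 (SE 0.36). Of the adenylyl cyclases, Adcy3 had 272.2 to 583 CPM in iBAT (median 344) and 28.98 to 51.5 in iWAT (median 37.4), a log2 fold change of 3.24 ± 0.19 (adjusted p = 8.59e-10). The order was reversed for Adcy5, with 12.4 to 23.6 CPM in iBAT (median 19.5) and 82.3 to 329.8 in iWAT (median 213), a log2 fold change of -3.44 ± 0.29 (adjusted p = 3.79e-08). The phosphodiesterase Pde4d, which breaks cAMP down, had 160.0 to 209 CPM in iBAT (median 189) and 15.1 to 25.6 in iWAT (median 17.4), a log2 fold change of 3.32 ± 0.13 (adjusted p = 1.29e-11). Hcar1, the lactate receptor that restrains lipolysis, had 23.7 to 52.1 CPM in iBAT (median 47.8) and 70.5 to 205 in iWAT (median 129), a log2 fold change of -1.64 ± 0.24 (adjusted p = 2.25e-05). The depots did not overlap in any of the genes named in this paragraph.

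Secreted factors linked to brown fat were not all higher there. Of 20 such genes, 6 were higher in iBAT and 9 in iWAT, with a median log2 fold change of -0.50. With total counts 3 were higher in iBAT and 10 in iWAT, with a median of -0.94, and over the 8 libraries low in muscle genes the median was -1.36. Bmp8b, a ligand that sensitizes brown fat to adrenergic input, had 4.31 to 22.3 CPM in iBAT (median 8.15) and 0 to 0.153 in iWAT (median 0.0537), a log2 fold change of 7.29 ± 0.51 (adjusted p = 5.52e-09). The neurotrophic S100b had 27.2 to 38.4 CPM in iBAT (median 32.7) and 3.27 to 4.80 in iWAT (median 3.67), a log2 fold change of 3.07 ± 0.12 (adjusted p = 1.54e-11). Neither overlapped between the depots, and iWAT held next to no Bmp8b. Nrg4, an epidermal growth factor receptor ligand, had 87.8 to 116 CPM in iBAT (median 107) and 41.6 to 70.5 in iWAT (median 51.8), a log2 fold change of 0.99 ± 0.11 (adjusted p = 9.35e-07). Vegfa, which drives vessel growth, had 503 to 680.3 CPM in iBAT (median 580.0) and 271.4 to 423 in iWAT (median 331), a log2 fold change of 0.82 ± 0.11 (adjusted p = 9.29e-06). With total counts both fell under the fold threshold, at 0.56 for Nrg4 and 0.37 for Vegfa. On the inguinal side, Metrnl had 5.35 to 7.73 CPM in iBAT (median 6.22) and 42.6 to 75.5 in iWAT (median 64.3), a log2 fold change of -3.24 ± 0.14 (adjusted p = 3.58e-11). Slit2 had 0.190 to 0.717 CPM in iBAT (median 0.545) and 2.90 to 6.41 in iWAT (median 4.26), a log2 fold change of -3.18 ± 0.26 (adjusted p = 3.81e-08). Epdr1 was likewise higher in iWAT, with a log2 fold change of -3.01 (SE 0.31). Apoe, of lipoproteins, had 450.5 to 693 CPM in iBAT (median 561) and 1858 to 4938 in iWAT (median 3993), a log2 fold change of -2.74 ± 0.20 (adjusted p = 6.83e-09). Stromal and immune cells also make several of these factors. Markers of fibroblasts and macrophages were higher in iWAT, as given further on, and their part in the levels of these factors was not tested.

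Markers of white adipocytes were higher in iWAT. Of 16 genes, 15 were DEGs higher in iWAT and 0 in iBAT, against 25.3% and 17.5% of all genes tested, with a median log2 fold change of -3.51. Leptin (Lep) had 2.58 to 37.01 CPM in iBAT (median 17.2) and 79.7 to 319 in iWAT (median 236), a log2 fold change of -3.60 ± 0.49 (adjusted p = 1.09e-05). Resistin (Retn) had 26.01 to 40.8 CPM in iBAT (median 33.8) and 522 to 755 in iWAT (median 659), a log2 fold change of -4.25 ± 0.12 (adjusted p = 3.88e-12). Psat1, of serine synthesis, had 2.90 to 4.95 CPM in iBAT (median 4.54) and 78.1 to 118 in iWAT (median 97.9), a log2 fold change of -4.46 ± 0.14 (adjusted p = 5.06e-12). Slc7a10, a neutral amino acid transporter of white adipocytes, had 12.6 to 18.96 CPM in iBAT (median 14.2) and 97.9 to 382 in iWAT (median 189), a log2 fold change of -3.77 ± 0.29 (adjusted p = 1.43e-08). Wfdc21 had 0.0492 to 0.533 CPM in iBAT (median 0.231) and 9.01 to 24.1 in iWAT (median 14.4), a log2 fold change of -5.95 ± 0.37 (adjusted p = 1.25e-09). The ranges of these 5 genes did not meet. Nnat, an imprinted gene of adipocytes, had 3.54 to 12.8 CPM in iBAT (median 7.37) and 11.8 to 413 in iWAT (median 363), a log2 fold change of -5.26 ± 0.65 (adjusted p = 3.76e-06). Its ranges met only because iWAT replicate 5 stood at 11.8 CPM, while the other 6 inguinal libraries held 132 CPM or more. The marker that was not called was Npr3, the clearance receptor for natriuretic peptides, with 43.96 to 118 CPM in iBAT (median 66.7) and 30.2 to 241 in iWAT (median 104.9). Without iWAT replicate 5 it was called, at a log2 fold change of -0.88, and likewise with total counts (-1.19). The fit with the mouse as a block, which also lacks that library, called it too (-0.76).

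Genes of all adipocytes were called about as often as all genes tested, of which 17.5% were higher in iBAT and 25.3% in iWAT. Of 19 tested, 3 were higher in iBAT, 5 were higher in iWAT and 11 were not called, and the median log2 fold change was -0.03 with TMM, 0.003 with RLE factors and further toward iWAT with total counts, where 1 and 9 genes were called. Fabp4, the fatty acid carrier, had 7844 to 9101 CPM in iBAT (median 7993) and 8168 to 10764 in iWAT (median 9777), a log2 fold change of -0.20 ± 0.10 (adjusted p = 0.114) and was not called, whereas with total counts it was called higher in iWAT (-0.64). Adiponectin (Adipoq) had 617 to 817 CPM in iBAT (median 652) and 1136 to 2051 in iWAT (median 1715), a log2 fold change of -1.31 ± 0.12 (adjusted p = 1.99e-07). Adipsin (Cfd), the complement factor D of fat, had 207 to 476 CPM in iBAT (median 429) and 3553 to 7463 in iWAT (median 6612), a log2 fold change of -4.01 ± 0.22 (adjusted p = 4.34e-10). Adipoq and Cfd did not overlap between the depots.

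Markers proposed for beige adipocytes were higher in iWAT, in mice that had neither cold exposure nor methionine restriction. Of 11 genes, 10 were DEGs higher in iWAT and 0 in iBAT, with a median log2 fold change of -2.78. Tmem26 had 0 to 0.0948 CPM in iBAT (median 0.0485) and 5.66 to 15.3 in iWAT (median 7.49), a log2 fold change of -7.11 ± 0.38 (adjusted p = 2.46e-10). Tbx1, a T-box factor, had 0.190 to 0.640 CPM in iBAT (median 0.326) and 1.99 to 4.69 in iWAT (median 3.18), a log2 fold change of -3.22 ± 0.27 (adjusted p = 3.99e-08). Cd40, a receptor of the TNF family, had 0.840 to 1.62 CPM in iBAT (median 1.30) and 5.59 to 13.02 in iWAT (median 8.62), a log2 fold change of -2.78 ± 0.22 (adjusted p = 2.81e-08). Slc27a1, a fatty acid transporter, had 385 to 566 CPM in iBAT (median 493) and 877 to 1505 in iWAT (median 1271), a log2 fold change of -1.34 ± 0.14 (adjusted p = 5.98e-07). Ear2, a ribonuclease of eosinophils and macrophages, had 0.0840 to 0.430 CPM in iBAT (median 0.231) and 3.66 to 6.63 in iWAT (median 5.63), a log2 fold change of -4.40 ± 0.28 (adjusted p = 1.73e-09). The 15 macrophage genes summed to 158 to 248.1 CPM in iBAT and 2121 to 3474 CPM in iWAT, and their part in Ear2 and Cd40 was not tested.

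**Figure D3:**
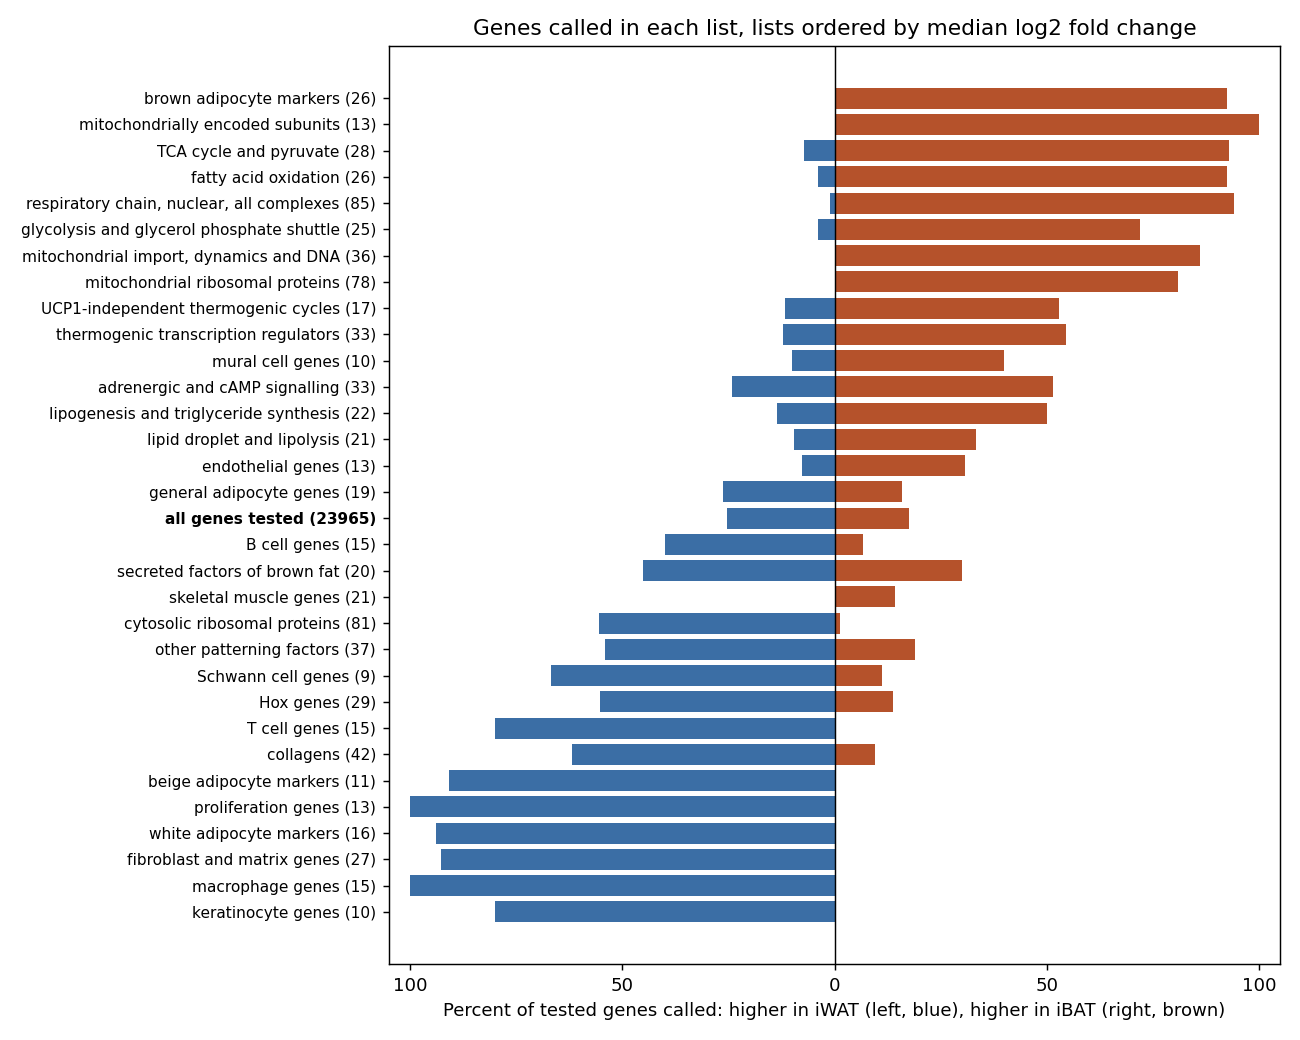
For each gene list, with the number of genes tested in parentheses, the percent of genes called higher in iBAT (brown, to the right) and higher in iWAT (blue, to the left), ordered by the median log2 fold change of the list. All genes tested (bold) show 17.5% to the right and 25.3% to the left; mitochondrial lists reach 80.8% or more to the right and macrophage and proliferation genes 100% to the left. With total counts, the medians of the lipid droplet and endothelial lists fall below 0, and with RLE factors that of the general adipocyte list rises above it.

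Positional identity was visible in the Hox clusters, whose genes are numbered by paralog group from the head end (low numbers) to the tail end (high numbers) of the embryo. Of 29 Hox genes tested, 4 were higher in iBAT, 16 were higher in iWAT and 9 were not called, with a median log2 fold change of -1.06. In paralog groups 1 to 5, 4 of 13 genes were higher in iBAT and 3 were higher in iWAT, with a median of 0.04. In groups 6 to 8, 0 of 8 were higher in iBAT and 5 were higher in iWAT, with a median of -1.19. In groups 9 to 11, all 8 were higher in iWAT, with a median of -5.22. Hoxa5 had 30.7 to 36.3 CPM in iBAT (median 33.9) and 5.45 to 10.5 in iWAT (median 7.45), a log2 fold change of 2.15 ± 0.14 (adjusted p = 1.86e-09). Hoxa4 had 12.9 to 19.5 CPM in iBAT (median 14.99) and 1.45 to 2.88 in iWAT (median 2.05), a log2 fold change of 2.91 ± 0.15 (adjusted p = 2.61e-10). Both stood higher in iBAT without overlap, whereas the genes of higher number turned to iWAT. Hoxc8 had 3.78 to 8.84 CPM in iBAT (median 6.28) and 59.8 to 70.2 in iWAT (median 65.2), a log2 fold change of -3.35 ± 0.14 (adjusted p = 3.02e-11). Hoxc9 had 0 to 0.168 CPM in iBAT (median 0.0485) and 14.1 to 19.6 in iWAT (median 19.2), a log2 fold change of -7.93 ± 0.29 (adjusted p = 1.17e-11). Hoxc10 had 0 to 0.0948 CPM in iBAT (median 0.0266) and 26.2 to 33.1 in iWAT (median 27.1), a log2 fold change of -9.30 ± 0.26 (adjusted p = 3.88e-12), so that iBAT held next to none of either. Hoxa10 had 0 counts over the 6 iBAT libraries and 13.2 to 17.1 CPM in iWAT (median 14.8), which makes it at least 620-fold higher in iWAT if 3 counts over all iBAT libraries are taken as the limit that a count of 0 allows. By the same limit Hoxc11 was at least 26.3-fold higher in iWAT. With total counts 2 Hox genes were higher in iBAT and 21 in iWAT.

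Other patterning factors went in both directions. Of 37 tested, 7 were higher in iBAT and 20 in iWAT, beside 17.5% and 25.3% of all genes tested, with a median log2 fold change of -0.91. Zic1, a zinc finger factor of the dorsal embryo and of classical brown fat, had 7.63 to 19.6 CPM in iBAT (median 13.6) and 0 to 0.0866 in iWAT (median 0.0458), a log2 fold change of 8.12 ± 0.36 (adjusted p = 5.01e-11). Its neighbour Zic4 had 3 counts over the iWAT libraries, and its level in iBAT was 118 times as high, with a 95% interval from 39.9 to 575 that covers counting error only. Its fitted log2 fold change of 6.49 was 7.47 without iWAT replicate 5. Tbx5, a T-box factor of the forelimb and heart, had 10.2 to 14.9 CPM in iBAT (median 11.4) and 1.996 to 4.90 in iWAT (median 3.76), a log2 fold change of 1.66 ± 0.18 (adjusted p = 6.84e-07). Higher in iWAT were Emx2 and Prrx1. Emx2, a homeobox factor of the urogenital system and forebrain, had 0 to 0.287 CPM in iBAT (median 0.0913) and 5.13 to 13.6 in iWAT (median 10.001), a log2 fold change of -6.44 ± 0.44 (adjusted p = 3.40e-09). Prrx1, a factor of limb mesenchyme and fibroblasts, had 6.12 to 11.3 CPM in iBAT (median 8.55) and 90.6 to 169 in iWAT (median 124), a log2 fold change of -3.83 ± 0.19 (adjusted p = 1.42e-10). Several limb and trunk factors followed. The T-box factor Tbx15 had 3.09 to 7.69 CPM in iBAT (median 3.87) and 18.4 to 31.5 in iWAT (median 27.8), a log2 fold change of -2.40 ± 0.22 (adjusted p = 1.40e-07). Shox2, of the proximal limb, had 1.17 to 6.12 CPM in iBAT (median 3.47) and 21.4 to 33.03 in iWAT (median 23.7), a log2 fold change of -2.87 ± 0.33 (adjusted p = 1.58e-06). For En1, of the ventral limb and trunk skin, the log2 fold change was -2.24 ± 0.23. Osr1, a zinc finger factor of lateral and intermediate mesoderm, had 0.798 to 2.40 CPM in iBAT (median 1.46) and 15.8 to 30.9 in iWAT (median 22.3), a log2 fold change of -3.95 ± 0.23 (adjusted p = 6.89e-10). None of these factors overlapped between the depots, and Emx2 widened to -7.04 without iBAT replicate 5.

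**Figure D4:**
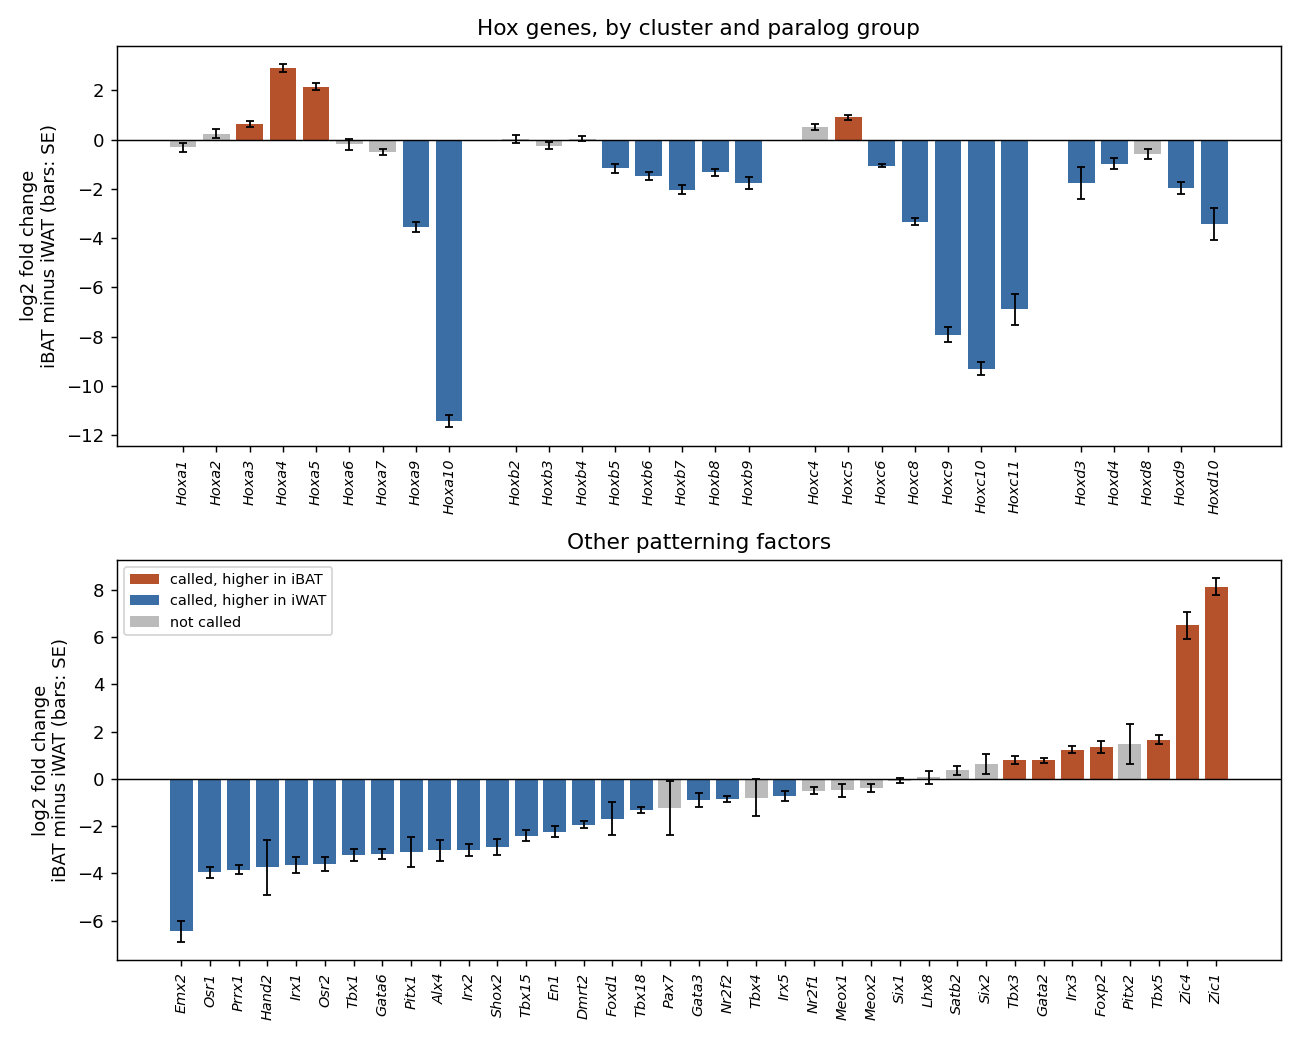
Log2 fold change (iBAT minus iWAT) with its SE as bars for 29 Hox genes in cluster order (top) and 37 other patterning factors in order of size (bottom), with DEGs higher in iBAT in brown, DEGs higher in iWAT in blue and genes not called in grey. All 8 genes of paralog groups 9 to 11 lie below 0, Hoxa10, Hoxc9 and Hoxc10 among them; Hoxa10, Hoxc11 and Hand2 had 0 counts in iBAT, so the length of their bars is set by the fit.

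Genes of fibroblasts and matrix were higher in iWAT. Of 27 fibroblast and matrix genes, 25 were higher in iWAT and 0 in iBAT, with a median log2 fold change of -3.65, and their summed level was 3663 to 4951 CPM in iBAT and 19982 to 44594 CPM in iWAT. No member was at 0 in either depot. The fibrillar collagens Col3a1 and Col1a1 had the most counts. Col3a1 had 241 to 623 CPM in iBAT (median 377) and 3588 to 12036 in iWAT (median 7161), a log2 fold change of -4.25 ± 0.33 (adjusted p = 1.57e-08). Col1a1 had 112 to 360.3 CPM in iBAT (median 185) and 2129 to 8754 in iWAT (median 4779), a log2 fold change of -4.68 ± 0.40 (adjusted p = 4.70e-08). Fibronectin (Fn1) had 31.04 to 91.5 CPM in iBAT (median 43.7) and 546 to 2133 in iWAT (median 1225), a log2 fold change of -4.71 ± 0.38 (adjusted p = 2.81e-08). Pdgfra, the receptor that marks adipose progenitors, had 14.1 to 24.6 CPM in iBAT (median 19.5) and 101 to 169 in iWAT (median 117), a log2 fold change of -2.66 ± 0.15 (adjusted p = 4.17e-10). Dpp4 and Pi16 mark progenitors of the reticular interstitium. Dpp4 had 0.756 to 3.89 CPM in iBAT (median 1.45) and 33.4 to 145 in iWAT (median 86.03), a log2 fold change of -5.48 ± 0.43 (adjusted p = 2.04e-08). Pi16 had 11.7 to 28.5 CPM in iBAT (median 18.004) and 148 to 492 in iWAT (median 342), a log2 fold change of -4.10 ± 0.29 (adjusted p = 5.50e-09). The depots did not overlap in these 6 genes. Of 42 collagens tested, 26 were higher in iWAT and 4 in iBAT, with a median of -2.02. The 4 were Col27a1, with 103 to 206 CPM in iBAT (median 138) and 21.4 to 41.4 in iWAT (median 23.5), a log2 fold change of 2.53 ± 0.18 (adjusted p = 5.74e-09), Col11a2 at 2.08, Col7a1 at 1.18 and Col13a1 at 0.97, all 4 chosen once their values were known. The call of Col13a1 was lost with total counts (0.53) and with glmTreat.

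Macrophage genes were higher in iWAT in 15 of 15 cases, with a median log2 fold change of -3.90 and no overlap in any. Adgre1 (F4/80) had 5.04 to 8.22 CPM in iBAT (median 5.88) and 66.02 to 123 in iWAT (median 77.99), a log2 fold change of -3.83 ± 0.18 (adjusted p = 9.18e-11). The lysozyme Lyz2 had 36.7 to 62.0 CPM in iBAT (median 44.3) and 613 to 906 in iWAT (median 694), a log2 fold change of -4.00 ± 0.15 (adjusted p = 1.17e-11). Mrc1 (CD206) had 10.3 to 26.1 CPM in iBAT (median 14.6) and 158 to 418 in iWAT (median 265.2), a log2 fold change of -4.00 ± 0.26 (adjusted p = 1.87e-09). Fcgr1, an interferon-responsive Fc receptor, had 0.853 to 1.55 CPM in iBAT (median 1.19) and 14.6 to 131 in iWAT (median 31.4), and its log2 fold change of -5.07 was -4.40 without iWAT replicate 7. Lymphocyte genes were low. T cell genes summed to 4.54 to 5.56 CPM in iBAT and 11.5 to 16.9 CPM in iWAT, and 12 of 15 were higher in iWAT. Of 15 B cell genes, 6 were higher in iWAT and 1 in iBAT. Over the 8 libraries low in muscle genes, 8 T cell and 3 B cell genes were higher in iWAT, and 1 of each list was higher in iBAT. Ighm, the heavy chain of IgM, had 3.53 to 6.45 CPM in iBAT (median 6.03) and 29.1 to 118 in iWAT (median 75.6), a log2 fold change of -3.68 ± 0.32 (adjusted p = 7.31e-08). Cd79a, a part of the B cell receptor and the gene with the opposite call, stayed at 0.812 to 1.33 CPM in iBAT (median 1.08) and 0.322 to 0.953 in iWAT (median 0.657), a log2 fold change of 0.78 ± 0.25 (adjusted p = 0.014). This call was lost with total counts (0.34, adjusted p = 0.252), where 0 B cell genes were higher in iBAT, and with glmTreat (adjusted p = 0.197). Of 4 lymph node stroma genes tested, 2 were higher in iWAT, among them the chemokine Cxcl13 with 1.26 to 4.26 CPM in iBAT (median 3.26) and 21.9 to 41.3 in iWAT (median 30.7), a log2 fold change of -3.37 ± 0.24 (adjusted p = 7.72e-09). All 13 proliferation genes were higher in iWAT at low levels, with a median of -3.18. Mki67, present in cycling cells, had 0.0948 to 0.669 CPM in iBAT (median 0.5676) and 4.40 to 20.2 in iWAT (median 8.19), a log2 fold change of -4.12 ± 0.41 (adjusted p = 2.86e-07).

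Vascular lists leaned toward iBAT by less. Of 13 endothelial genes, 4 were higher in iBAT and 1 in iWAT, beside 17.5% and 25.3% of all genes tested. Their median log2 fold change of 0.29 with TMM was -0.16 with total counts, where 2 genes were called in each direction. Cdh5, the cadherin of endothelial junctions, had 218 to 278.6 CPM in iBAT (median 269.2) and 76.7 to 230.4 in iWAT (median 156), a log2 fold change of 0.78 ± 0.20 (adjusted p = 0.0034), with overlapping depots, and its call was lost with total counts (0.33) and with glmTreat. Kdr (VEGFR2), the receptor for VEGF-A, had 300.2 to 372 CPM in iBAT (median 336) and 60.6 to 129 in iWAT (median 120.0), a log2 fold change of 1.61 ± 0.14 (adjusted p = 6.64e-08). Flt1 had 189.6 to 230.1 CPM in iBAT (median 198) and 53.9 to 105.03 in iWAT (median 94.2), a log2 fold change of 1.21 ± 0.13 (adjusted p = 5.79e-07), both without overlap. In these receptors the iBAT libraries stood above all iWAT libraries. Vwf, of larger vessels, was higher in iWAT with 29.6 to 41.1 CPM in iBAT (median 36.3) and 49.4 to 83.2 in iWAT (median 54.8), a log2 fold change of -0.72 ± 0.12 (adjusted p = 7.74e-05), a call that glmTreat did not make. Of 10 mural genes, 4 were higher in iBAT and 1 in iWAT, with a median of 0.72, and the pericyte gene Rgs5 had 357 to 411 CPM in iBAT (median 389.8) and 66.9 to 131 in iWAT (median 120.2), a log2 fold change of 1.83 ± 0.14 (adjusted p = 1.51e-08). With total counts 2 mural genes were called in each direction. Of 9 Schwann cell genes, 6 were higher in iWAT and 1 in iBAT.

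Lists of tissues that border the depots were read as a check of the dissection. Skeletal muscle genes summed to 39.6 to 3439 CPM in iBAT (median 663) and 28.9 to 7651 CPM in iWAT (median 252.02), so the depots overlapped. Of the 21 genes 18 were not called and 3 were called higher in iBAT, of which 1 was called with the mouse as a block. Mb (myoglobin) had 0.190 to 24.7 CPM in iBAT (median 8.85) and 0 to 5.20 in iWAT (median 0.477). The other 2 are myosins of oxidative fibres. Myh2 had 0 to 50.2 CPM in iBAT (median 13.7) and 0.152 to 7.09 in iWAT (median 1.95), and Myh7 had 0 to 45.5 CPM in iBAT (median 0.454) and 0 to 4.85 in iWAT (median 0). The log2 fold change of Mb, 3.42, was 4.90 without iWAT replicate 4. The calls of Myh2 (2.96) and Myh7 (4.05) were lost without iBAT replicate 3 (2.32 and 3.87) and with the mouse as a block (2.12 and 4.89). The call of Myh7 was lost as well without iBAT replicate 5 (2.36) or any of iWAT replicates 1, 2, 3, 5, 6 and 7 (3.77 to 3.90), and iWAT replicate 4 was the sole inguinal library with Myh7 counts. The median log2 fold change of this list, -0.61, was 1.60 over the 8 libraries with at most 1000 CPM of muscle genes. Of 10 keratinocyte genes, 8 were higher in iWAT, and 3 over the same 8 libraries. With the mouse as a block, 8 keratinocyte genes were tested, of which 6 were higher in iWAT and 1 in iBAT. The sum of the 10 genes was 6.50 to 9.19 CPM in iBAT and 32.9 to 137 CPM in iWAT. The highest sum was that of iWAT replicate 5, which the fit by mouse lacks. The keratins Krt5, Krt15 and Krt17 were at 0 counts in all iBAT libraries. Of 6 glandular epithelium genes tested, 2 were higher in iBAT and 1 in iWAT (2 and 2 with total counts), and their sum stayed under 4 CPM in every library. Of 3 mesothelial genes tested, 1 was higher in iBAT and 2 in iWAT, with sums of 3.23 to 10.7 CPM. Of 5 erythroid genes, 1 was higher in iWAT (with the mouse as a block, 0 were and 1 was higher in iBAT), with sums of 79.4 to 152 CPM in iBAT and 61.3 to 157 CPM in iWAT. The part of muscle, skin or blood in the depot differences was not tested beyond the counts over the 8 libraries.

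Toward the extremes, the widest gaps without overlap, among genes of at least 5 CPM in the higher depot, included transcripts without a known function. Toward iBAT, Lgr6, a receptor for R-spondins, had 100.1 to 184 CPM in iBAT (median 146) and 0 to 1.31 in iWAT (median 0.217), a log2 fold change of 7.98 ± 0.52 (adjusted p = 2.09e-09). Kng2, a kininogen, had 62.0 to 92.1 CPM in iBAT (median 81.2) and 0.347 to 2.07 in iWAT (median 0.635), a log2 fold change of 6.79 ± 0.30 (adjusted p = 4.41e-11). Slco4a1, an organic anion transporter that carries thyroid hormone, had 18.8 to 28.7 CPM in iBAT (median 21.01) and 0.102 to 0.824 in iWAT (median 0.183), a log2 fold change of 5.96 ± 0.34 (adjusted p = 4.94e-10). The predicted transcript Gm32468 had 1524 counts over the iBAT libraries and 2 over the iWAT libraries, a ratio of 1073 per library size with a 95% counting interval from 296.5 to 8868. The next in rank, AC153155.2, had 25.7 to 107 CPM in iBAT (median 45.3) and 0 to 0.512 in iWAT (median 0.0510), a log2 fold change of 8.19 ± 0.56 (adjusted p = 3.54e-09), and 9.05 without iWAT replicate 7.

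Toward iWAT, Akr1c18, a hydroxysteroid dehydrogenase, had 3 counts over the iBAT libraries and 1945 over the iWAT libraries, a ratio of 460 with an interval from 157 to 2235. Saa3, a serum amyloid of fat and macrophages, had 0 to 0.191 CPM in iBAT (median 0.0680) and 3.52 to 12.3 in iWAT (median 9.70), a log2 fold change of -6.73 ± 0.49 (adjusted p = 7.77e-09). Cd5l, a secreted macrophage protein, had 0 to 0.335 CPM in iBAT (median 0.0246) and 3.27 to 41.3 in iWAT (median 11.7), a log2 fold change of -7.43 ± 0.79 (adjusted p = 7.01e-07), which was -8.76 without iBAT replicate 5. Slfn4, an interferon-responsive gene of myeloid cells, had 0.373 to 1.72 CPM in iBAT (median 0.993) and 7.75 to 913 in iWAT (median 25.4), a log2 fold change of -7.18 ± 1.41 (adjusted p = 3.84e-04). Its highest inguinal value is that of replicate 7, without which the log2 fold change was -4.38. Mup22, of the major urinary proteins, had 0.0840 to 1.39 CPM in iBAT (median 0.643) and 19.2 to 104 in iWAT (median 55.3), a log2 fold change of -6.64 ± 0.52 (adjusted p = 1.84e-08). Its family has near-identical copies that could share reads. Among the DEGs with the most counts, carbonic anhydrase 3 (Car3) had 647 to 1719 CPM in iBAT (median 753) and 4858 to 9912 in iWAT (median 8401), a log2 fold change of -3.11 ± 0.26 (adjusted p = 3.75e-08). Gelsolin (Gsn) had 564 to 995.7 CPM in iBAT (median 831) and 4671 to 9369 in iWAT (median 7818), a log2 fold change of -3.15 ± 0.20 (adjusted p = 1.39e-09). Transferrin (Trf) had 113 to 197 CPM in iBAT (median 156) and 1832 to 2783 in iWAT (median 2237), a log2 fold change of -3.89 ± 0.15 (adjusted p = 1.29e-11).

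To see whether the depots stay as far apart under thermogenic stimuli, the depot difference of MetR_CE was tested against that of Ctrl_RT in a joint fit of all 54 iBAT and iWAT libraries, with 28343 genes tested and 3599 called (12.7%). Of these, 1415 shifted toward iBAT and 2184 toward iWAT. The groups follow the sample titles, but 3 iBAT libraries of this fit, replicate 1 of MetR_CE among them, carry a treatment tag of another group. Without these 3 libraries 3503 genes were called, and none of the 13 genes below changed its call or direction. The 13 genes below were chosen with earlier results known. For Ucp1 the log2 fold change between depots was 5.82 in Ctrl_RT and 2.14 in MetR_CE, a change of -3.68 (SE 0.71, adjusted p = 9.67e-05). The inguinal level of Ucp1 had been 1.13 to 387 CPM in Ctrl_RT and was 1928 to 4989.6 CPM in MetR_CE, while that of iBAT went from 6623 to 9684 CPM to 13638 to 16501 CPM. The gap also narrowed for Dio2, by -3.48 (SE 0.57, adjusted p = 6.94e-06), and for Cox7a1, by -2.91 (SE 0.44, adjusted p = 1.35e-06). For Cidea the change was -2.19 (SE 0.43, adjusted p = 1.17e-04) and for Cox8b -1.75 (SE 0.28, adjusted p = 3.76e-06). Elovl3 changed by -1.94 (SE 0.61, adjusted p = 0.0161), a call that DESeq2 on the 4 groups did not share (0.05, adjusted p = 0.984). Lep moved further toward iWAT, by -3.34 (SE 0.52, adjusted p = 2.99e-06). The depot difference of the positional genes was not shown to change. It was 8.13 and 7.56 for Zic1, -2.37 and -2.58 for Tbx15, -3.32 and -3.49 for Hoxc8, -7.88 and -10.19 for Hoxc9 (adjusted p of the change 0.0565) and -9.25 and -10.58 for Hoxc10, and that of Ppargc1a was 2.39 and 1.81 (adjusted p of the change 0.317).

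**Figure D5:**
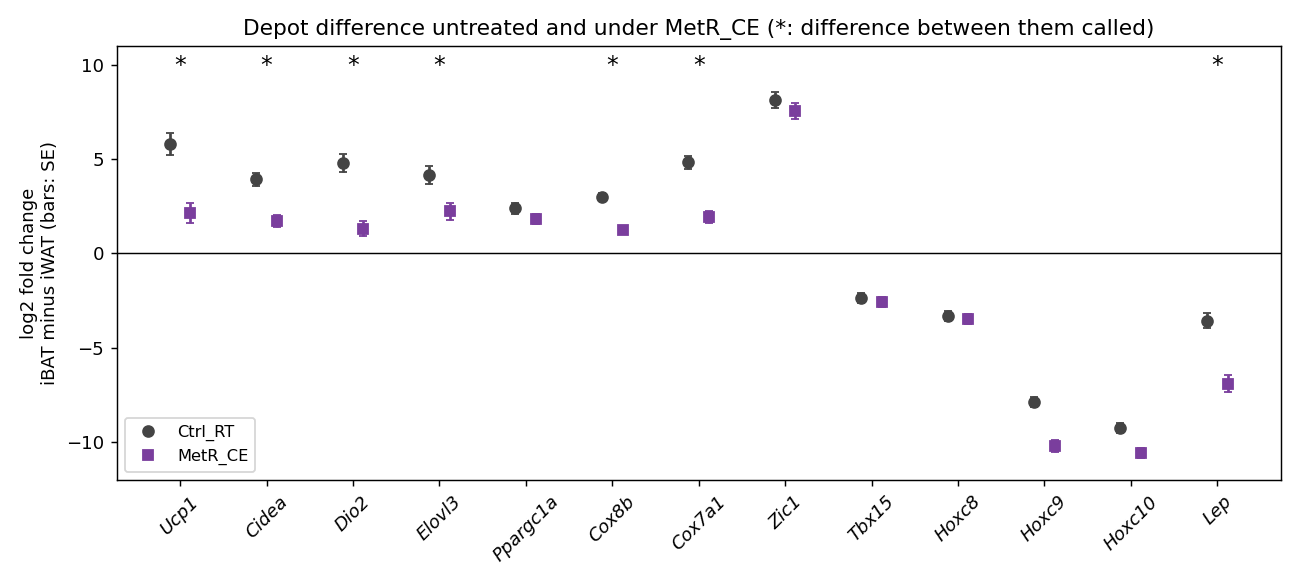
Log2 fold change (iBAT minus iWAT) with its SE for 13 genes in Ctrl_RT (circles) and MetR_CE (squares), from the joint fit of 54 libraries, with an asterisk where the difference between the 2 was called. The squares of Ucp1, Cidea, Dio2, Elovl3, Cox8b and Cox7a1 lie closer to 0 than the circles, that of Lep lies further below, and the positional genes from Zic1 to Hoxc10 have no asterisk.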

How the data were processed

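RNA of whole fat depots was sequenced as 2×50 bp pairs after poly(A) selection (NEBNext Ultra II), and 1 iBAT and 1 iWAT sample were lost in preparation. The authors deposited raw counts per gene for all 54 iBAT and iWAT libraries, on mm10 with GENCODE vM25 per the study's methods, which name STAR 2.7.9a, featureCounts 2.0.3, Salmon 1.9.0 and DESeq2 1.46.0. Which of the counters made the count table is not given in the sources used here. Counts were whole numbers, columns were matched to samples by library number, and 51948 of 56884 gene IDs matched a symbol. Each library held 17215400 to 31843700 counts, so a gene at 0 in a depot was given a limit of 3 counts over the depot, which covers counting error only.

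Genes with at least 10 counts over the 13 libraries were fitted with edgeR 4.0.16 (R 4.3.3, TMM, quasi-likelihood), with the depot as the only term and Benjamini-Hochberg adjustment over all genes. DEGs followed the study's thresholds (adjusted p under 0.05 and absolute log2 fold change of at least 0.585). p-values measure the spread between mice of 1 experiment. The labels give the mouse, so 6 mice pair the depots. The deviations of the paired libraries from their depot means, over 14020 genes, correlated from -0.41 to 0.52, and 2 of 6 iBAT libraries matched their own mouse best. The change of the depot difference was tested over 54 libraries in 8 groups. The mitochondrial share of counts was compared with an exact permutation test over libraries and an exact sign-flip test over the mice with both depots. The edgeR fit of iBAT against iWAT was run on simulated counts in which a small part of the genes changed, in both directions. With so few changed genes that check cannot test the choice of scaling. The other steps were not simulated. Alternatives were RLE factors, total counts, TMM without mitochondrially encoded genes, other filters, DESeq2 1.42.0, limma 3.58.1, glmTreat, a mouse block, all 54 libraries, each library left out, and, chosen after seeing the data, the 8 libraries with at most 1000 CPM of muscle genes.

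The genes compared, and the lists, were chosen with earlier results of these data known. Genes were named by mean CPM within a list, any member of the lists of brown and white markers, Hox genes and patterning factors, the 10 widest gaps without overlap (at least 5 CPM) and the 10 DEGs with the highest mean CPM with a log2 difference of 1 or more in each direction, not all of which are described. Other members of longer lists, such as Prdm16, Ppargc1a, Esrrg, Cpt1b, Gpat3, Plin5, Alpl, Adrb1, Dpp4, Col27a1 and Vwf, were chosen for their role or after their values were seen. Values of some list members are not reported here. Promoters (GRCm38.p6, 250 bases) came from RefSeq.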

Additional observations from a re-analysis of the deposited data

Results flagged for a closer look

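Over the genes named above and the mitochondrial share, 334 groups of 6 or 7 values (each gene in each depot) were compared, and in 44 of them the highest or lowest library lay further from the rest than Dixon's 95% critical value allows, 14 in iBAT and 30 in iWAT. That value sets apart about 1 in 20 groups of independent, normally distributed values. CPM values need not be so distributed, and the genes share the same libraries, so the 44 groups cannot be read as an excess over chance. Of the 30 inguinal values, 14 belonged to replicate 5. No cause of any of these values was tested.

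In iBAT replicate 1, the values set above were Bmp8b at 22.3 CPM, where the other libraries of the depot held 4.31 to 8.67 CPM, Fabp3 at 465 CPM (others 199 to 256.6), Ldhb at 552 CPM (others 475 to 503), Ckb at 87.4 CPM (others 28.7 to 33.1) and AC153155.2 at 107 CPM (others 25.7 to 54.9). In iBAT replicate 2, the values set above were Car3 at 1719 CPM (others 647 to 1045) and Adipoq at 817 CPM (others 617 to 687). In iBAT replicate 4, the values set below were Mki67 at 0.0948 CPM (others 0.533 to 0.669) and Esrra at 287.8 CPM (others 328 to 343). In iBAT replicate 5, the values set above were Cd5l at 0.335 CPM (others 0 to 0.0840) and Myh7 at 45.5 CPM (others 0 to 15.7). In iBAT replicate 5, the value set below was Cdh5 at 218 CPM (others 258.7 to 278.6). In iBAT replicate 6, the values set below were Cfd at 207 CPM (others 380.3 to 476) and Kng2 at 62.0 CPM (others 80.95 to 92.1).

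In iWAT replicate 1, the values set above were Cd5l at 41.3 CPM (others 3.27 to 16.8), Col27a1 at 41.4 CPM (others 21.4 to 26.7) and Mki67 at 20.2 CPM (others 4.40 to 9.04). In iWAT replicate 1, the value set below was Adra1b at 1.27 CPM (others 3.27 to 4.24). In iWAT replicate 2, the values set above were Gpat3 at 148 CPM (others 66.5 to 92.5), Vwf at 83.2 CPM (others 49.4 to 62.9) and Adra2a at 3.81 CPM (others 1.28 to 2.34). In iWAT replicate 3, the value set above was Tmem26 at 15.3 CPM (others 5.66 to 8.97). In iWAT replicate 4, the values set above were Myh7 at 4.85 CPM (others 0 to 0) and Mb at 5.20 CPM (others 0 to 0.726). In iWAT replicate 5, the values set above were Gpd2 at 412 CPM (others 131 to 217), Elovl6 at 2137 CPM (others 202 to 664), Hk2 at 586 CPM (others 138 to 209.8), Nrg4 at 70.5 CPM (others 41.6 to 53.5) and Pkm at 1475 CPM (others 567 to 861). Also in iWAT replicate 5 and set above were Cox7a2 at 116 CPM (others 77.6 to 91.8), Zic4 at 0.101 CPM (others 0 to 0.0269), Pfkl at 502 CPM (others 201 to 329), Acly at 9723 CPM (others 1419 to 3570.1) and Mrpl12 at 104 CPM (others 72.8 to 84.1). Also in iWAT replicate 5 and set above were Fasn at 38275 CPM (others 11659 to 21871), Gpd1 at 4361 CPM (others 2211 to 2677), Kng2 at 2.07 CPM (others 0.347 to 0.853) and Ndufa11 at 54.05 CPM (others 33.6 to 40.5). In iWAT replicate 7, the values set above were Fcgr1 at 131 CPM (others 14.6 to 39.97), Pdk4 at 562 CPM (others 95.8 to 283.9), Slfn4 at 913 CPM (others 7.75 to 44.8), Ppara at 34.5 CPM (others 5.85 to 16.7) and Pdk3 at 6.96 CPM (others 4.49 to 5.42). In iWAT replicate 7, the value set below was Hoxc9 at 14.1 CPM (others 18.5 to 19.6).

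The depot difference also changed between Ctrl_RT and MetR_CE, by the test of that change in the joint fit, for 7 of the 13 genes set side by side. On the log2 scale (MetR_CE minus Ctrl_RT) it was -3.68 for Ucp1, -2.19 for Cidea, -3.48 for Dio2, -1.94 for Elovl3, -1.75 for Cox8b, -2.91 for Cox7a1 and -3.34 for Lep. For the first 6 the depots came closer together, and for Lep they moved further apart.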

How the results depend on the processing

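The count of DEGs lay between 9784 and 10380 when each library was left out in turn, and between 7838 (glmTreat) and 11590 (total counts) under the other alternatives. With total counts in place of TMM, 2306 genes were higher in iBAT and 9284 in iWAT, of which 8365 DEGs were shared with TMM. The size of the split thus depends on the scaling, while under each alternative more DEGs were higher in iWAT than in iBAT. Over the 8 libraries with at most 1000 CPM of muscle genes, 8811 DEGs were called, of which 8432 were shared. The replicate block by mouse, over the 6 mice with both depots and so without iWAT replicate 5, gave 10077 DEGs. Of these, 9550 were shared and 43.96% were higher in iBAT. The block changed no call of a gene named above other than those of Pcx, Npr3, Myh2 and Myh7. Without iWAT replicate 5 and with no block, 10380 DEGs were called, 9877 of them shared. Differences between the block and the main fit thus mix the pairing with the loss of that library. DESeq2 called 9898 DEGs, filterByExpr 7926 of 16117 genes tested, and limma-voom 10577.

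Of the log2 fold changes of the named genes under all alternatives, 3916 kept their direction and call, 42 lost the call, 7 gained it and 15 changed sign, all 15 for genes not called. Total counts ended the calls of Pparg, Pnpla2, Slc29a1, Cdh5, Nrg4, Vegfa, Acly, Atp5g2, Col13a1, Cd79a and Myh7 and added those of Atp5g3, Fabp4, Ckb and Npr3. A test against the fold threshold (glmTreat) ended those of Slc2a1, Vwf, Cd79a, Cdh5, Col13a1, Acly, Myh7, Atp5g2, Slc29a1 and Pcx. The 8 libraries low in muscle genes ended those of Elovl6, Acly, Pcx, Myh2 and Myh7, limma-voom those of Myh2 and Myh7, and DESeq2 that of Myh7. With total counts the changes of sign were those of Lhx8 (-0.39), Adrb3 (-0.39), Plin1 (-0.30) and Scd1 (-0.19). Adrb3 was at -0.0068 with the block, at -0.024 to 0.21 with each library left out (below 0 without iBAT replicate 1 or 3 or iWAT replicate 5), and at -0.041 over the libraries low in muscle genes, where Ckb was at 0.024. Lhx8 was at -0.052 to 0.22 with each library left out (below 0 without iBAT replicate 2 or 6 or iWAT replicate 1, 5 or 6). The list medians that changed sign were those of general adipocyte genes with RLE factors (0.0031), of lipid droplet (-0.088), endothelial (-0.16) and erythroid genes (-0.15) with total counts, and of skeletal muscle (1.60) and glandular epithelium genes (0.92) over the libraries low in muscle genes. The cause of these changes was not tested. For the change of the depot difference under MetR_CE, the alternatives called 3503 to 3718 genes, and Elovl3 alone changed sign, to 0.047 with DESeq2.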

Other observations

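The liver genes in iBAT replicate 5, a list of 10 chosen after their values were seen, were led by Alb (albumin), which had 46.4 CPM there. Alb had 0.107 to 3.24 CPM in the other iBAT libraries and 16.3 to 35.05 CPM in iWAT. All 10 genes had their highest iBAT level in this library, and Cps1, of the urea cycle, had 4.64 CPM there while it was at 0 in all iWAT libraries. With this library 9 of the 10 were DEGs higher in iBAT. Without it 7 were tested, 0 were called higher in iBAT, and Alb was called higher in iWAT (log2 fold change -4.81).

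The interferon response genes in iWAT replicate 7, a list chosen in the same way, summed to 43.2 to 80.7 CPM in iBAT. All 10 were highest in replicate 7. All 10 were DEGs higher in iWAT with this library and 9 without it. The exception was Rsad2, an antiviral enzyme, with 309 CPM in replicate 7, 23.8 to 67.2 CPM in the other iWAT libraries and 17.01 to 43.9 CPM in iBAT, whose log2 fold change of -1.44 (adjusted p = 0.0458) was -0.39 without replicate 7 (adjusted p = 0.251). Cxcl10, a chemokine induced by interferon, had 213 CPM in this library and 2.76 to 10.4 CPM in the other iWAT libraries. Isg15, a ubiquitin-like interferon target, had 106 CPM there and 5.71 to 22.0 CPM in the others.

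In the joint fit, 4667 genes were called higher in iBAT in Ctrl_RT, and 1140 of them had a called change of the depot difference toward iWAT in MetR_CE. Of the 6312 genes called higher in iWAT in Ctrl_RT, 1048 had a called change toward iBAT. Of all 28343 genes tested, 2184 had a called change toward iWAT and 1415 toward iBAT. The 4667 and 6312 genes were picked by their Ctrl_RT difference, which the change subtracts in the same fit. Error in that difference favours changes toward a smaller one, so the 1140 and 1048 genes cannot show whether the depots converge.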
